A study of Caenorhabditis elegans with 48 samples.

Results

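JTL611 is a Caenorhabditis elegans strain whose heat shock factor, HSF-1, was fused to GFP and to a degron that responds to auxin (hsf-1::aid::gfp, on chromosome I), and the 6 libraries described here record its response to heat when no auxin was given. They are the 3 libraries of young adults held at 34 °C for 30 min (heat-shocked) and the 3 held at 20 °C (unheated), all from plates with ethanol, the solvent of auxin, out of 48 libraries and 4 strains in the series. Membership was set by the strain, plate and temperature in the labels, and every gene listed for the strain was kept, 12640 in all, of which 12010 had a mean of at least 1 CPM (counts-per-million) over the strain's 12 libraries and were tested. Messenger RNA was selected by its polyA tail and sequenced from directional libraries.

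Both groups shared a genotype. Besides the tagged hsf-1 they carried the transgene ieSi57 on chromosome II, in which the eft-3 promoter drives TIR1::mRuby with an unc-54 3′ end and which also holds Cbr-unc-119(+), and the allele unc-119(ed3) on chromosome III. TIR1 is an F-box protein of plants which, once auxin binds it, sends proteins with the degron to the proteasome. Worms were synchronised by bleaching, grown for 51 h and moved to the ethanol plates for 2 h before collection or heat shock, so the ethanol exposure is common to both groups. The heat response was set beside that of CA1200, which has ieSi57 and unc-119(ed3) with untagged HSF-1, and of JTL621, which has the tagged hsf-1 and unc-119(ed3) with TIR1 driven in the germline by the sun-1 promoter from ieSi38, both on the same plates at the same temperatures. The labels number the replicates without stating that they are separate cultures, so p-values measure a spread between libraries that may be technical. That spread was estimated over all 12 libraries of the strain, those from auxin plates included. Comparisons between strains used 24 libraries. HSF-1 protein was not measured in these files.

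HSF-1 binds repeated elements in the promoters of heat shock genes when protein folding is disturbed, and transcription of chaperone genes follows within minutes. The best-known targets in C. elegans are the hsp-16 genes, which encode small heat shock proteins that hold unfolded proteins, and inducible Hsp70 genes, whose products refold them with ATP. Constitutive chaperones, co-chaperones and the proteasome serve the same protein quality control in unheated cells.

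The 3 heat-shocked libraries held 14931987, 17492490 and 17973320 reads on listed genes, against 14647181, 18498780 and 18193705 in the 3 unheated libraries. At these depths a count of 3 reads, the most that a count of 0 allows, was worth 0.154 to 0.211 CPM, which covers counting error only. The libraries were alike over all genes, and the lowest correlation of log2 values within a group was 0.971, between replicates 1 and 2 after heat shock; heat-shocked replicate 2 correlated better with an unheated library (0.978). Nuclear ribosomal RNA was higher in the heat-shocked libraries, at 75902, 131720 and 90479 summed CPM, than in the unheated ones at 66404, 66367 and 64749, summed over 4 annotated genes; neither these genes nor the ribosomal RNA pseudogene rrn-3.56 (3718, 7936 and 5811 CPM after heat shock, against 3696, 3889 and 3927 CPM unheated) was called. With all ribosomal RNA left out of the library totals, a setting chosen after seeing the data, 714 genes were called where 779 were otherwise. Markers of germline and oocytes, body wall muscle, intestine and neurons were all detected in these whole worms, and none of 14 early zygotic genes was among the listed genes.

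Heat shock changed 779 of 12010 genes (6.49%) by limma at an adjusted p under 0.05, of which 278 were higher (2.31%) and 501 lower (4.17%) at 34 °C. Over all genes tested the median log2 fold change was -0.00. All fold changes given are heat-shocked minus unheated as log2(CPM + 1), a scale on which genes with low values change by less than their ratio. The 3 heat-shocked libraries did not overlap the 3 unheated ones for 21.1% of all genes tested (9.66% with heat shock higher and 11.5% with heat shock lower), and for each of the 278 and each of the 501 called genes. Of the higher genes 132 rose by at least 1 on the log2 scale, 55 by at least 2 and 20 by at least 3, whereas of the lower genes 91 changed by at least 1 and only R193.2 and asp-13 by at least 2. The summed level of the higher genes averaged 34451 CPM after heat shock, against 9697 CPM unheated, and that of the lower genes averaged 19402 CPM after heat shock, against 31061 CPM unheated. A total of 64 of the higher genes had been under 1 CPM at 20 °C. The number of calls depended on single unheated libraries, at 449 without unheated replicate 2 and 491 without unheated replicate 3, with 249 and 292 lower genes. Without 1 heat-shocked library it was 629 to 906. With the replicate number as a block it was 1261, with 397 higher (3.31%) and 864 lower (7.19%). In a fit to the 6 ethanol libraries alone, which takes the spread from those libraries only, it was 283, with 136 higher and 147 lower. This fit has fewer libraries to estimate the spread, and the cause of the smaller number was not tested.

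**Figure D1:**
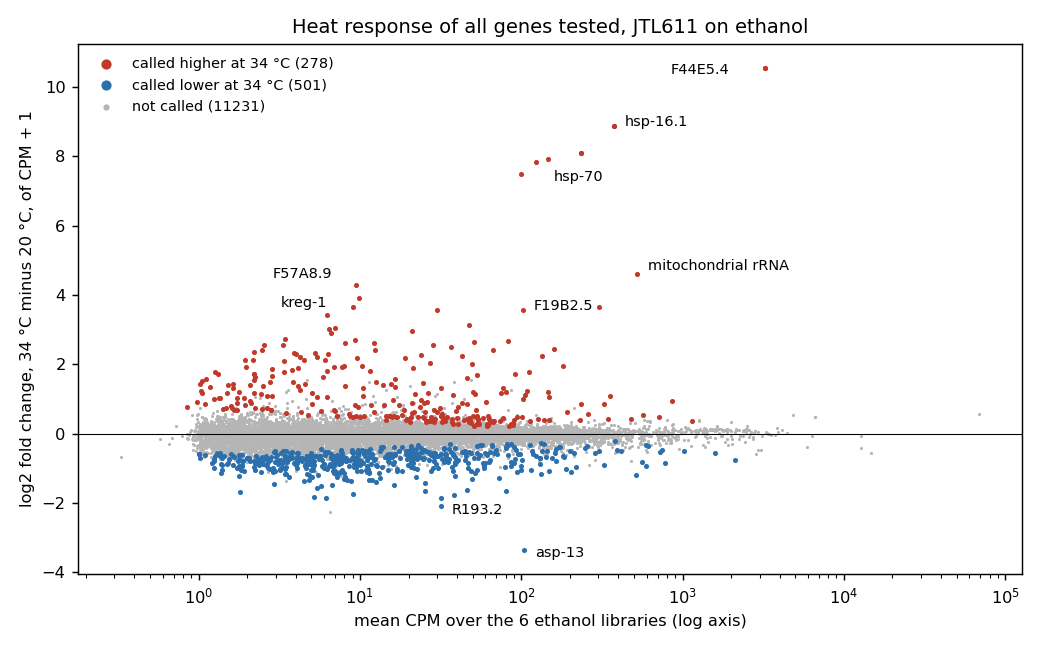
Each point is 1 of the 12010 genes tested, with its mean CPM over the 6 libraries on the horizontal log axis and its log2 fold change (34 °C minus 20 °C, of CPM + 1) on the vertical axis; red points are the 278 genes called higher, blue points the 501 called lower and grey points the rest. The 9 inducible chaperone genes stand above a log2 fold change of 7, and asp-13 lies lowest at -3.35.

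The inducible chaperone genes were nearly silent at 20 °C. The Hsp70 genes F44E5.4 and F44E5.5, which lie head to head on chromosome II (11757107 to 11759311 and 11759662 to 11761861 in WBcel235), had the largest changes on the log2(CPM + 1) scale and were the most abundant of all higher genes at 34 °C. F44E5.4 had 6148, 6692 and 6620.2 CPM in heat-shocked libraries, against 1.83, 3.75 and 5.20 CPM in unheated libraries. Its log2 fold change was 10.53 (SE 0.25, limma adjusted p = 8.97e-11), and the unheated libraries differed among themselves more, in proportion, than the heat-shocked ones did. The Hsp70 gene hsp-70 had 357, 243 and 280.4 CPM in heat-shocked libraries, against 0.422, 0.103 and 0.106 CPM in unheated libraries. The unheated values amount to 6, 2 and 2 reads, and the log2 fold change was 7.92 (SE 0.17, limma adjusted p = 6.78e-11).

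The 6 hsp-16 genes formed 2 clusters on chromosome V, hsp-16.2 with hsp-16.41 (1804334 to 1805875) and hsp-16.1, hsp-16.48, hsp-16.49 and hsp-16.11 (9087293 to 9090604). In the first cluster hsp-16.2 had 285, 138 and 179 CPM in heat-shocked libraries, against 0.0703, 0.0514 and 0.106 CPM in unheated libraries. For hsp-16.41 the values were 354, 175 and 213 CPM after heat shock, against 0, 0 and 0.106 CPM unheated. Since hsp-16.41 had 11966 reads in all heat-shocked libraries and 2 in the unheated ones, its ratio, scaled for depth, was 6361, with a 95% counting interval of 1761 to 52532. The second cluster was higher in both states. Its gene hsp-16.1 had 989, 535 and 730.4 CPM in heat-shocked libraries, against 0.633, 0.463 and 0.584 CPM in unheated libraries. For hsp-16.48 the values were 607, 329 and 465 CPM after heat shock, against 1.13, 0.309 and 0.690 CPM unheated. The log2 fold changes of the 6 genes lay between 7.48 and 8.87, and all 6 were called, as were 3 of 3 inducible Hsp70 genes. The neighbouring T27E4.1, 1740 bases beyond hsp-16.11 on the same strand, also rose, by a log2 fold change of 1.503, at 5.52, 3.87 and 4.40 CPM after heat shock, against 1.06, 0.823 and 1.01 CPM unheated; it was named after its values were seen.

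The heat-shocked replicates ranked differently for the gene families. Each hsp-16 gene and hsp-70 was highest in heat-shocked replicate 1 and lowest in replicate 2, while the F44E5 pair was lowest in replicate 1. Summed over the 9 genes the difference was small, at 1.64%, 1.51% and 1.61% of the listed CPM after heat shock, against 0.000751%, 0.000957% and 0.00137% unheated. The hsp-16.1 and hsp-16.11 genes, like hsp-16.48 with hsp-16.49 and F44E5.4 with F44E5.5, are almost the same in sequence, and their read counts differed by at most 0.0926%, 0.639% and 2.74% in libraries with at least 50 reads. How the authors' counting divided reads between copies is not given in the sources used here, so the level of each copy is uncertain and the 9 genes are fewer than 9 separate measurements.

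**Figure D2:**
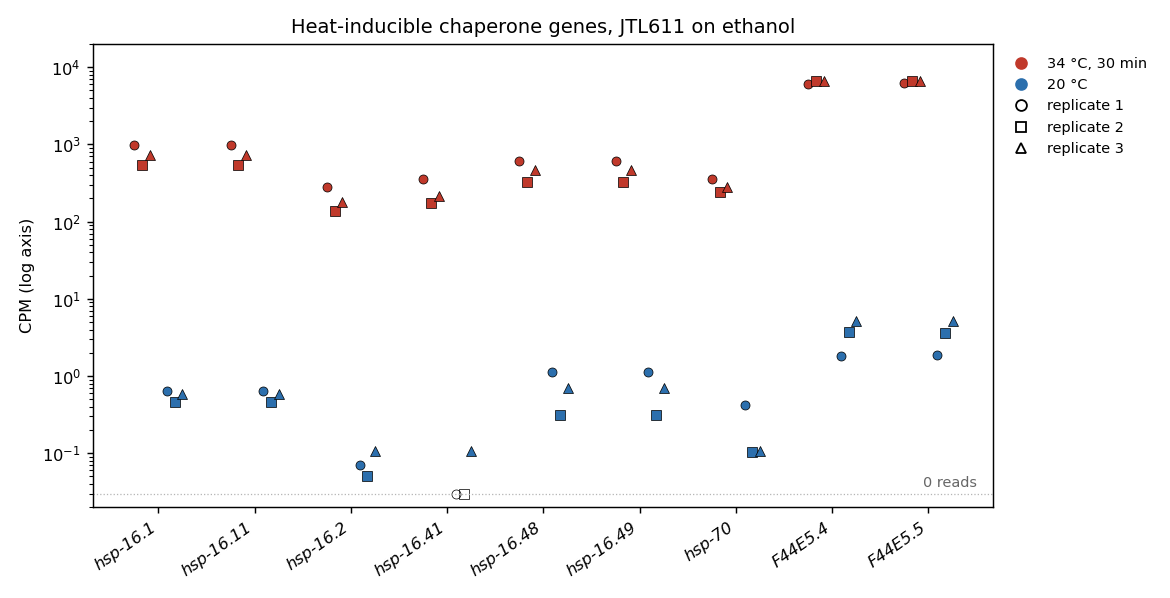
The level of each of the 9 inducible chaperone genes in CPM (vertical log axis) is shown for each library, heat-shocked in red on the left and unheated in blue on the right of each gene, with the replicate number as the symbol; open symbols on the dotted line are libraries with 0 reads. For every gene the heat-shocked values, from 138 CPM upward, lie far above the unheated ones, none of which exceeds 5.20 CPM.

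Among 22 constitutive cytosolic chaperones and co-chaperones 3 rose (13.6%, beside 2.31% of all genes tested) and none fell, with a median log2 fold change of 0.07. The Hsp110 gene hsp-110, whose product reloads Hsp70 with ATP, had 983, 1175 and 1219 CPM in heat-shocked libraries, against 618, 576 and 562 CPM in unheated libraries. The Hsp40 gene dnj-13 had 313, 295 and 301 CPM in heat-shocked libraries, against 182, 160.3 and 158 CPM in unheated libraries. Their log2 fold changes were 0.94 (SE 0.09) and 0.86 (SE 0.08), each with a limma adjusted p of 4.24e-05. For unc-23, which encodes a BAG-domain co-chaperone known for muscle attachment, the values were 84.0, 68.2 and 93.7 CPM after heat shock, against 21.5, 25.98 and 26.4 CPM unheated, a log2 fold change of 1.69 (SE 0.11). The heat-shocked and unheated libraries of these 3 genes did not overlap, as for every called gene. The main cytosolic Hsp70 and Hsp90 genes, hsp-1 and hsp-90, had log2 fold changes of -0.04 and 0.17 and were not called.

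Of 9 small heat shock protein genes outside the hsp-16 family, hsp-12.6 alone was called (11.1%, beside 2.31% higher over all genes tested). It had 2.36, 1.55 and 1.24 CPM after heat shock, against 0.563, 0.566 and 0.319 CPM unheated (log2 fold change 0.86, SE 0.17, limma adjusted p = 0.00851). With the replicate block 2 rose (22.2%, beside 3.31%) and 1 fell (11.1%, beside 7.19%). No call was made among 14 genes of the CCT chaperonin and prefoldin or among 31 proteasome subunit genes, and their medians were 0.06 and 0.04. Of 14 ubiquitin and CDC-48 genes only aip-1, an arsenite-inducible gene whose product acts at the proteasome, was called (7.14%, beside 2.31% higher over all genes tested). It had 42.5, 34.4 and 36.3 CPM after heat shock, against 28.8, 25.4 and 27.98 CPM unheated. Its log2 fold change of 0.44 was not called when any 1 of heat-shocked replicates 1 and 3 and unheated replicates 2 and 3 was left out, with log2 fold changes of 0.36 to 0.47 and adjusted p of 0.0639 to 0.137. Among 23 genes of the endoplasmic reticulum none rose and 1 fell (4.35%), near the 4.17% lower over all genes tested. That gene was dnj-20, an Hsp40 gene of that compartment, which fell by 0.35 on the log2 scale. It lost the call without heat-shocked replicate 2 (adjusted p = 0.053) or any 1 unheated replicate (0.0526 to 0.0925). Of 16 mitochondrial chaperone and stress genes none rose and 1 fell (6.25%, beside 4.17% of all genes tested). It was dve-1, for a homeodomain regulator of the mitochondrial stress response, with 2.96, 5.12 and 4.63 CPM after heat shock, against 6.82, 8.18 and 6.11 CPM unheated (log2 fold change -0.63, limma adjusted p = 0.046). That call was lost without any 1 library other than heat-shocked replicate 2 (adjusted p of 0.0665 to 0.18). In all, dve-1 lost the call in 12 of 16 alternative settings, among them another pseudocount, the deposited log2 values and the ethanol libraries alone.

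The hsf-1 transcript itself had 24.1, 43.9 and 40.9 CPM in heat-shocked libraries, against 40.1, 38.7 and 36.9 CPM in unheated libraries. Heat-shocked replicate 1 was lowest and the other heat-shocked libraries were highest, so the groups overlapped, and the log2 fold change of -0.13 (SE 0.18, limma adjusted p = 0.772) changed sign, to 0.13, without heat-shocked replicate 1. Degradation through the degron would not show in this transcript. Neither hsf-2 nor the genes of HSF-1's binding regulators hsb-1, ddl-1 and ddl-2 were called.

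Outside the inducible chaperones, the largest log2 fold change was that of a ribosomal RNA gene of the mitochondrial genome, and the other such gene rose with it. The gene at bases 898 to 1593 (WBGene00014454) had 1048, 1022 and 940.4 CPM in heat-shocked libraries, against 32.6, 43.5 and 45.7 CPM in unheated libraries, a log2 fold change of 4.61 (SE 0.12, limma adjusted p = 2.2e-10). The gene at bases 10403 to 11354 (WBGene00014472) had 625, 589.7 and 468 CPM after heat shock, against 29.8, 55.8 and 47.9 CPM unheated, a log2 fold change of 3.66 (SE 0.20). Of 12 protein-coding genes of the same genome none rose and 1 fell (8.33%, beside 4.17% of all genes tested). It was WBGene00010963 at bases 6506 to 7808, with 156, 200.4 and 164 CPM after heat shock, against 244, 274 and 244 CPM unheated. Its limma adjusted p was 0.0127, and 0.0624 without unheated replicate 2. With the replicate block 2 of the 12 rose (16.7%, beside 3.31%) and 2 fell (16.7%, beside 7.19%). Nuclear ribosomal RNA was highest in heat-shocked replicate 2, whereas both mitochondrial ribosomal RNAs were highest in heat-shocked replicate 1. Libraries were made from polyA-selected RNA, and the share of a ribosomal RNA recovered that way was not measured here.

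Of 52 genes annotated as ncRNA 8 rose (15.4%) and none fell, and of 19 lincRNA genes 3 rose and none fell, beside 2.31% higher over all genes tested. The ncRNA F57A8.9 had 23.7, 17.6 and 15.5 CPM in heat-shocked libraries and no read in any unheated library, so it was at least 108-fold higher, counting 3 reads in each unheated library as the floor. The long noncoding RNA tts-1, known for its abundance in long-lived mutants, had 53.9, 65.1 and 47.2 CPM after heat shock, against 2.53, 9.98 and 1.70 CPM unheated (log2 fold change 3.57, SE 0.38, limma adjusted p = 0.000115). Unheated replicate 2 was the highest of its group for tts-1 and still lay far under the lowest heat-shocked library. C30E1.9 (ncRNA) and linc-6, named after their values were seen, had log2 fold changes of 2.44 and 3.06.

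Several protein-coding genes outside the chaperones were under 1 CPM at 20 °C and rose. R11A5.3 had 28.4, 14.1 and 16.14 CPM in heat-shocked libraries, against 0.492, 0.257 and 0.212 CPM in unheated libraries, and kreg-1 had 15.4, 18.9 and 18.6 CPM after heat shock, against 0.141, 0.772 and 0.637 CPM unheated. Their log2 fold changes were 3.90 (SE 0.22) and 3.64 (SE 0.23). Sperm genes spe-36 and spe-49, whose products act at fertilisation, rose by log2 fold changes of 2.89 and 2.11, at 13.9, 9.59 and 13.9 CPM after heat shock against 0.774, 0.720 and 0.903 CPM unheated for spe-36. These are 7.14% of the 28 spermatogenesis genes tested, beside 2.31% higher over all genes tested. The remaining 26 and all 29 major sperm protein genes were not called. The gene spe-36 overlaps F40F11.3 on the same strand, and spe-49 lies 1212 bases beyond fil-2, a lipase gene that rose by 3.44, so how reads were divided at these places is uncertain. The metal-responsive genes numr-1 and numr-2, whose reads were identical in every library, rose by 1.71, whereas the metallothionein gene mtl-2 fell by 0.84 on the log2 scale (42.7, 30.3 and 27.4 CPM after heat shock, against 64.4, 50.3 and 65.8 CPM unheated), which was not called without heat-shocked replicate 3 (adjusted p = 0.0615) or unheated replicate 3 (0.0722).

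Among 34 stress-response transcription regulators 4 rose (11.8%) and 1 fell (2.94%), beside 2.31% higher and 4.17% lower over all genes tested. Their median log2 fold change was -0.04. With the replicate block 2 fell (5.88%, beside 7.19%). The bZIP gene zip-10 had 24.4, 21.6 and 18.1 CPM in heat-shocked libraries, against 0.985, 4.58 and 3.29 CPM in unheated libraries (log2 fold change 2.62, SE 0.35, limma adjusted p = 0.000636). The Mad-like repressor gene mdl-1 rose by 0.98, cebp-1 by 0.81 and mxl-3 by 0.57, and the hypoxia factor gene hif-1 fell by 0.59 on the log2 scale. Genes for the insulin-pathway factor daf-16 and the oxidative stress factor skn-1 had log2 fold changes of 0.08 and -0.06 and were not called. None of 18 oxidative stress genes was called, and with the replicate block 1 fell (5.56%, beside 7.19%).

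Of 41 histone genes 4 rose (9.76%, beside 2.31% of all genes tested) and none fell. With the replicate block 8 rose (19.5%, beside 3.31%). The H2B gene his-41 had 136, 85.9 and 117 CPM after heat shock, against 25.8, 17.2 and 18.1 CPM unheated, a log2 fold change of 2.41 (SE 0.20). Its neighbour his-35, an H2A gene 247 bases away and transcribed the other way, had 137, 83.0 and 94.7 CPM after heat shock, against 52.8, 41.1 and 42.1 CPM unheated, a log2 fold change of 1.17. On its other side his-41 overlaps C50F4.6, which rose by 1.90. Of 115 cuticle collagen genes dpy-17 and bli-1 rose, by 2.13 and 1.26, and none fell. The 1.74% that rose is below the 2.31% of all genes tested. With the replicate block 2 rose (1.74%, beside 3.31%) and 4 fell (3.48%, beside 7.19%).

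Of 14 intestine markers 5 fell (35.7%, beside 4.17% of all genes tested) and none rose, with a median log2 fold change of -0.32. With the replicate block 7 fell (50%, beside 7.19%). The microvillus actin gene act-5 had 395, 413 and 406 CPM in heat-shocked libraries, against 671, 689.7 and 781 CPM in unheated libraries, a log2 fold change of -0.82 (SE 0.08, limma adjusted p = 5.41e-05). The intestinal oligopeptide transporter gene pept-1 fell to 63.7, 66.8 and 72.5 CPM after heat shock, against 120, 130 and 142 CPM unheated. For both genes, as for every gene called lower, each heat-shocked library lay below each unheated one. The gut identity factor gene elt-2 had a log2 fold change of -0.24 and was not called. The markers' summed level was 3125 to 3438 CPM after heat shock, against 4500 to 5469 CPM unheated. In RNA of whole worms, fewer cells of a type and less RNA per cell cannot be told apart.

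Of 16 peptide, amino acid and folate transporters 6 fell (37.5%, beside 4.17% of all genes tested) and none rose, with a median of -0.42. The folate transporter gene folt-1 had 2.29, 2.44 and 2.60 CPM in heat-shocked libraries, against 6.61, 9.31 and 11.1 CPM in unheated libraries, a log2 fold change of -1.51 (SE 0.26). The peptide transporter genes pept-2 and pept-3 fell by 1.25 and 1.101, aat-6 by 1.03 and folt-2 by 0.56 on the log2 scale. The summed level of the 17 listed members, 1 of them below the filter on low values, was 293, 299 and 360.0 CPM after heat shock, against 458, 498 and 569 CPM unheated. The intestine markers, which include pept-1, moved with it, and their part in it was not tested. Outside the list, the organic anion transporter gene oat-1 fell by 1.56, at 2.36, 1.67 and 2.77 CPM after heat shock against 9.29, 6.64 and 9.93 CPM unheated.

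The aspartic protease gene asp-13 (chromosome V, 8641602 to 8643193) had the largest fall of all called genes on the log2(CPM + 1) scale. It had 12.25, 30.9 and 14.3 CPM in heat-shocked libraries, against 173, 193.199 and 203 CPM in unheated libraries, a log2 fold change of -3.35 (SE 0.27, limma adjusted p = 1.33e-05). Heat-shocked replicate 2 was the highest of its group and still lay far under the unheated libraries. In the same list of 11 proteases asp-1 fell by 0.74 and asp-6 by 0.85 on the log2 scale and none rose. The 3 that fell are 27.3% of the list, beside 4.17% of all genes tested. With the replicate block 6 fell (54.5%, beside 7.19%). The call of asp-6 was lost without unheated replicate 2 (log2 fold change -0.76, adjusted p = 0.11) or 3 (-0.81, adjusted p = 0.0965). The gene hrg-7, for a secreted protein of the aspartic protease fold known from heme signalling, had 16.6, 20.7 and 11.7 CPM after heat shock, against 89.1, 52.7 and 39.6 CPM unheated, a log2 fold change of -1.78 (SE 0.27).

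**Figure D3:**
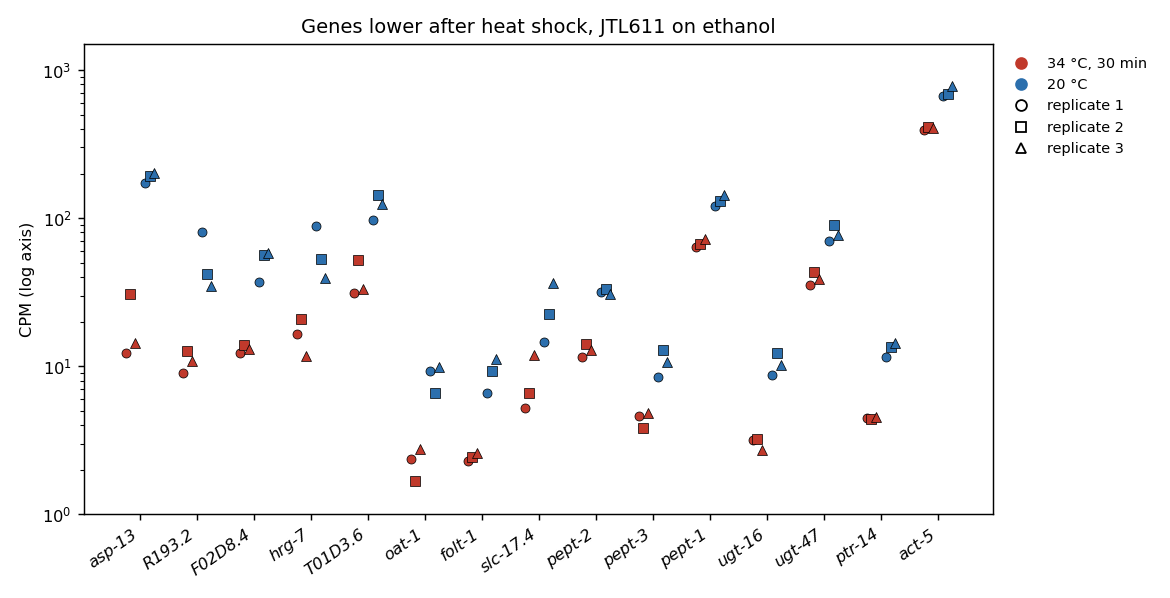
The level of 15 genes called lower after heat shock, in CPM on the vertical log axis, is shown for each library, heat-shocked in red on the left and unheated in blue on the right of each gene, with the replicate number as the symbol. As for every gene called lower, the groups do not overlap for any of the 15 genes. The gap is widest for asp-13, at 12.25 to 30.9 CPM after heat shock and 173 to 203 CPM unheated.

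Of 50 UDP-glucuronosyltransferase genes, which conjugate small molecules, 11 fell (22%) and 4 rose (8%), with a median of -0.45. Over all genes tested 4.17% fell and 2.31% rose. With the replicate block 16 fell (32%, beside 7.19%). The gene ugt-16 had 3.16, 3.22 and 2.71 CPM in heat-shocked libraries, against 8.65, 12.24 and 10.2 CPM in unheated libraries, a log2 fold change of -1.49. Of the 4 that rose, ugt-8, ugt-14 and ugt-13 lie in a row on 1 strand with gaps of 310 and 579 bases, and ugt-14 had 3.97, 2.98 and 4.06 CPM after heat shock, against 0.352, 0.206 and 0.159 CPM unheated. The fourth was ugt-44, at 1.16. Of 71 C-type lectin genes, many of them gut or immune effectors, 9 fell (12.7%) and 1 rose (1.41%), beside the same shares of all genes. With the replicate block 15 fell (21.1%, beside 7.19%). The intestine markers moved with the lectins and the transferases, at 3125 to 3438 CPM after heat shock, against 4500 to 5469 CPM unheated, and their part in these counts was not tested. Of 139 nuclear hormone receptor genes 5 fell (3.597%) and 3 rose (2.16%), shares near the 4.17% lower and 2.31% higher of all genes tested; with the replicate block 11 fell (7.91%) and 4 rose, beside 7.19% lower and 3.31% higher. Of 41 cytochrome P450 genes 2 fell (4.88%), also near the share of all genes, against 5 with the replicate block. Of 24 glutathione transferase genes none was called, and with the replicate block 1 rose (4.17%, beside 3.31%).

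Patched and patched-related genes, which encode membrane proteins with a sterol-sensing domain, changed in both directions. Of 19 tested 7 fell (36.8%) and 2 rose (10.5%), with a median log2 fold change of -0.57, beside 4.17% lower and 2.31% higher over all genes tested. The gene ptr-14 had 4.44, 4.41 and 4.57 CPM in heat-shocked libraries, against 11.5, 13.5 and 14.4 CPM in unheated libraries (log2 fold change -1.36, SE 0.15), and ptr-6, ptr-23 and ptc-3 each fell by 1.07 on the log2 scale. The genes that rose were scp-1, a homologue of the sterol sensor SCAP, and ptr-18, whose log2 fold changes were 1.77 and 2.22.

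Of 47 genes of fatty acid metabolism 4 fell and none rose, among them the fatty acid synthase gene fasn-1 (183, 250.2 and 259 CPM after heat shock, against 346, 322 and 349.8 CPM unheated) and the acyl-CoA synthetase gene acs-5, which fell by 0.93 on the log2 scale. The 4 that fell are 8.51% of the list, beside 4.17% of all genes tested. With the replicate block 6 fell (12.8%, beside 7.19%) and 1 rose (2.13%, beside 3.31%). None of the 6 vitellogenin genes, which encode yolk proteins, was called, although their median was -0.48. Their summed level was 28698, 33939 and 41954 CPM after heat shock, against 67816, 40051 and 41116 CPM unheated, so the unheated group was high in replicate 1 alone. The 80 cytosolic ribosomal protein genes tested held no call, with a median of 0.10.

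All 9 pharynx markers and all 16 body wall muscle markers had positive log2 fold changes, with medians of 0.73 and 0.35. Of each list 3 were called higher (33.3% and 18.75%), beside 2.31% of all genes tested. With the replicate block 7 and 9 were called higher (77.8% and 56.25%), beside 3.31%. The pharyngeal myosin gene myo-1 had 39.7, 55.6 and 120.1 CPM in heat-shocked libraries, against 17.5, 19.1 and 25.2 CPM in unheated libraries (log2 fold change 1.61, SE 0.38, limma adjusted p = 0.0241). Heat-shocked replicate 3 was far above the other heat-shocked libraries for myo-1, and without it the log2 fold change was 1.17 and the adjusted p 0.0639; without unheated replicate 1 or 2 the adjusted p was 0.0642 or 0.0829. The pharyngeal troponin T gene tnt-4 rose by 1.32, and by 1.21 with an adjusted p of 0.0567 without unheated replicate 2. The summed pharynx markers stood at 157, 171 and 363 CPM after heat shock, against 76.0, 76.8 and 114 CPM unheated, so replicate 3 was highest in each group. The myosin light chain gene mlc-1 had 662, 635 and 728 CPM after heat shock, against 468, 445 and 477 CPM unheated (log2 fold change 0.54, SE 0.08). It kept the call in every alternative setting. The muscle markers tni-1 and mlc-3 lost theirs in 7 and 2 of 16 settings, and the pharynx marker phat-3 in 2 of 15.

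Neuron markers went the other way, with 5 of 21 lower (23.8%, beside 4.17% of all genes tested), none higher and a median of -0.40. Among them rgef-1, a guanine nucleotide exchange factor gene of neurons, had 0.404, 0.476 and 0.564 CPM after heat shock, against 1.69, 2.73 and 2.39 CPM unheated, a log2 fold change of -1.13 (SE 0.15). The summed level of the neuron markers differed little, at 1004 to 1056 CPM after heat shock, against 1047 to 1090 CPM unheated. Of 39 germline, oocyte and meiosis markers 2 rose (5.13%) and 1 fell (2.56%), beside 2.31% higher and 4.17% lower over all genes tested, and their median was -0.03. The gene that fell was glh-1, an RNA helicase gene of germ granules, with 584, 651 and 646 CPM after heat shock, against 909, 838 and 861 CPM unheated (log2 fold change -0.47, SE 0.07). Those that rose were fbf-1 and fbf-2, for RNA-binding proteins of germline stem cells, by 0.34 and 0.41. Both lost the call without unheated replicate 2, with log2 fold changes of 0.30 and 0.36 and adjusted p of 0.0818 and 0.0505.

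**Figure D4:**
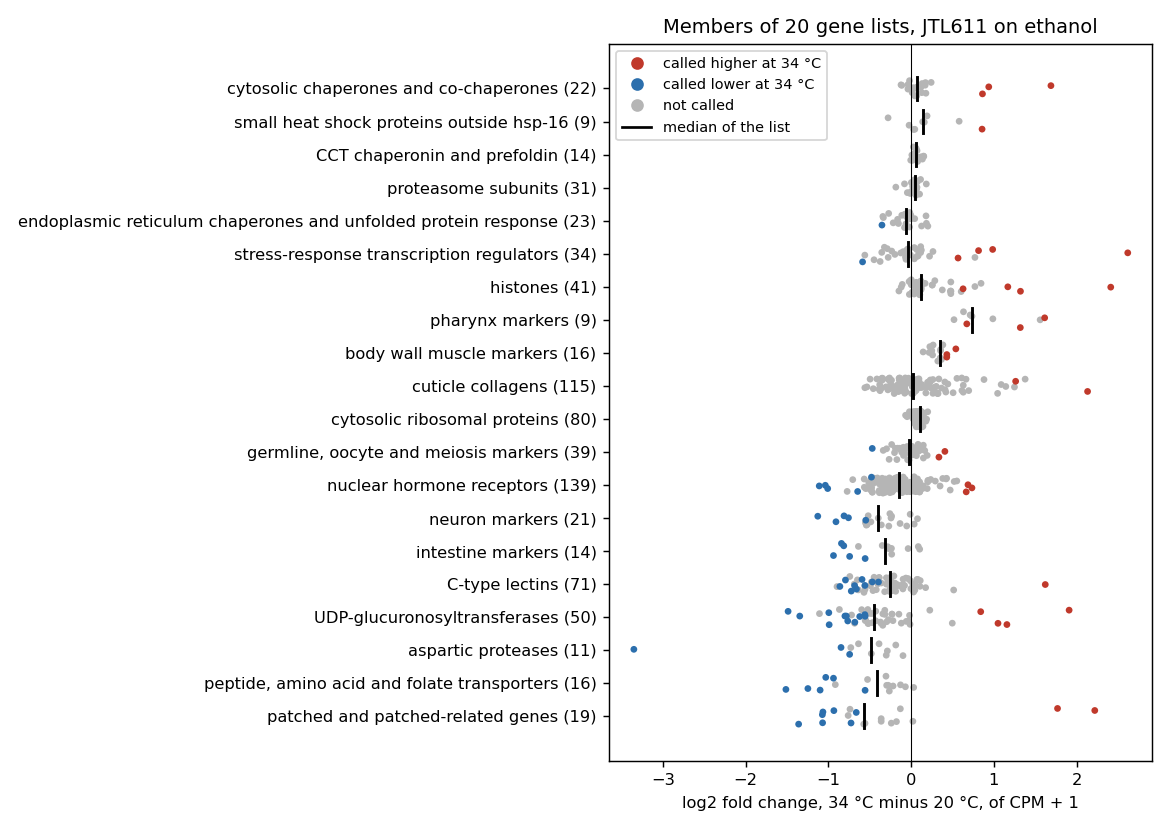
Each point is 1 tested member of 1 of 20 gene lists (number tested in brackets), placed by its log2 fold change (34 °C minus 20 °C, of CPM + 1); red points were called higher, blue points lower and grey points not called, and the black bar is the median of the list. Pharynx and body wall muscle markers lie wholly right of 0, with medians of 0.73 and 0.35, whereas medians of intestine markers (-0.32), transporters (-0.42) and patched-related genes (-0.57) lie left of it.

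The heat response of JTL611 was next compared with that of CA1200, whose HSF-1 has no tag, in a joint fit of 24 libraries. The authors normalised the strains' tables separately, so levels are given side by side and only the heat responses were tested. Among 11782 genes tested in both strains 9 (0.0764%) differed by limma at an adjusted p under 0.05, all with a smaller rise in JTL611, and 332 had an unadjusted p under 0.05. In a fit to the ethanol libraries alone 2 of the 9 kept the call, scp-1 and W03F9.1. The 9 were scp-1, ttll-12, R11A5.3, ptr-18, tent-5, nurf-1, hsp-110, aip-1 and W03F9.1. For scp-1 the values were 184.8, 154.8 and 183.6 CPM after heat shock, against 48.96, 52.3 and 49.6 CPM unheated in JTL611. In CA1200 they were 345, 329.6 and 289 CPM after heat shock, against 48.6, 45.4 and 48.17 CPM unheated. The strains thus stood further apart at 34 °C than at 20 °C, and the difference of the log2 fold changes was -0.96 (SE 0.13, 95% interval -1.23 to -0.70, limma adjusted p = 0.00151).

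The tubulin tyrosine ligase-like gene ttll-12, which begins 100 bases beyond scp-1 on the same strand, rose by 1.06 in JTL611 and 1.79 in CA1200, a difference of -0.73 (adjusted p = 0.0018). The chromatin remodelling factor gene nurf-1 had 398, 430.5 and 434 CPM in heat-shocked JTL611, against 249, 222 and 224 CPM unheated. In CA1200 it had 668, 655 and 654 CPM after heat shock, against 222, 180.1 and 233 CPM unheated, and the difference was -0.79 (adjusted p = 0.0018). Side by side, its unheated libraries overlapped between the strains and its heat-shocked ones did not. Levels were not tested between strains, whose tables were normalised separately. For hsp-110, with 983, 1175 and 1219 CPM in heat-shocked JTL611, the heat-shocked CA1200 libraries had 1834, 1703 and 1674 CPM, and the difference of the log2 fold changes was -0.61 (SE 0.11, 95% interval -0.84 to -0.39, adjusted p = 0.0216). The largest differences were those of ptr-18, at -1.94 (95% interval -2.51 to -1.37), and R11A5.3, at -1.94 (95% interval -2.54 to -1.33). With limma-voom neither of these genes was called, nor was aip-1. The gene unc-23 had a difference of -0.81 and was not called (adjusted p = 0.0811).

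None of the 9 inducible chaperone genes differed between JTL611 and CA1200 by this test, but their intervals were wide. The difference for hsp-70 was -0.56 (95% interval -1.47 to 0.35), with 357, 243 and 280.4 CPM in heat-shocked JTL611 and 933, 784 and 673 CPM in heat-shocked CA1200. For hsp-16.1 it was 0.73 (95% interval -0.06 to 1.51), and for F44E5.4 it was 0.37 (95% interval -0.67 to 1.41). Heat-shocked hsp-16.1 had 1002, 895 and 906 CPM in CA1200, beside 989, 535 and 730.4 CPM in JTL611. Unheated, it had 2.998, 1.08 and 3.302 CPM in CA1200, beside 0.633, 0.463 and 0.584 CPM in JTL611. F44E5.4 had 6606, 6665 and 6277 CPM in heat-shocked CA1200 and 4.12, 1.898 and 11.27 CPM in unheated CA1200. For both genes the heat-shocked values overlapped between strains, and for hsp-16.1 the unheated ones did not. For hsp-70, hsp-16.2 and hsp-16.41 each heat-shocked JTL611 library lay below each heat-shocked CA1200 library. Heat-shocked hsp-16.2 had 482, 385 and 376 CPM in CA1200, beside 285, 138 and 179 CPM in JTL611. Heat-shocked hsp-16.41 had 555, 457 and 425 CPM in CA1200, beside 354, 175 and 213 CPM in JTL611. Their unheated values were also lower in JTL611, and their log2 fold changes differed by -0.44 and -0.16. Levels were not tested between strains.

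Set against JTL621, which shares the tagged HSF-1, 4 of 11871 genes (0.0337%) differed, again all with a smaller rise in JTL611, and 394 had an unadjusted p under 0.05. They were scp-1 (-0.82), ttll-12 (-0.68), nurf-1 (-0.74) and W03F9.1 (-0.55). In heat-shocked JTL621 scp-1 had 256, 268 and 281 CPM, against 43.9, 46.0 and 41.2 CPM in unheated JTL621. Leaving out any 1 of the 12 ethanol libraries compared left 0 to 2 calls, the replicate block left 1, and a fit to the ethanol libraries alone left 0. The comparisons with CA1200 and with JTL621 share the JTL611 libraries, so the genes named in both are not independent findings. The strains also differ in the promoter and site of the TIR1 transgene, which cannot be told apart from other differences between JTL611 and JTL621.

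**Figure D5:**
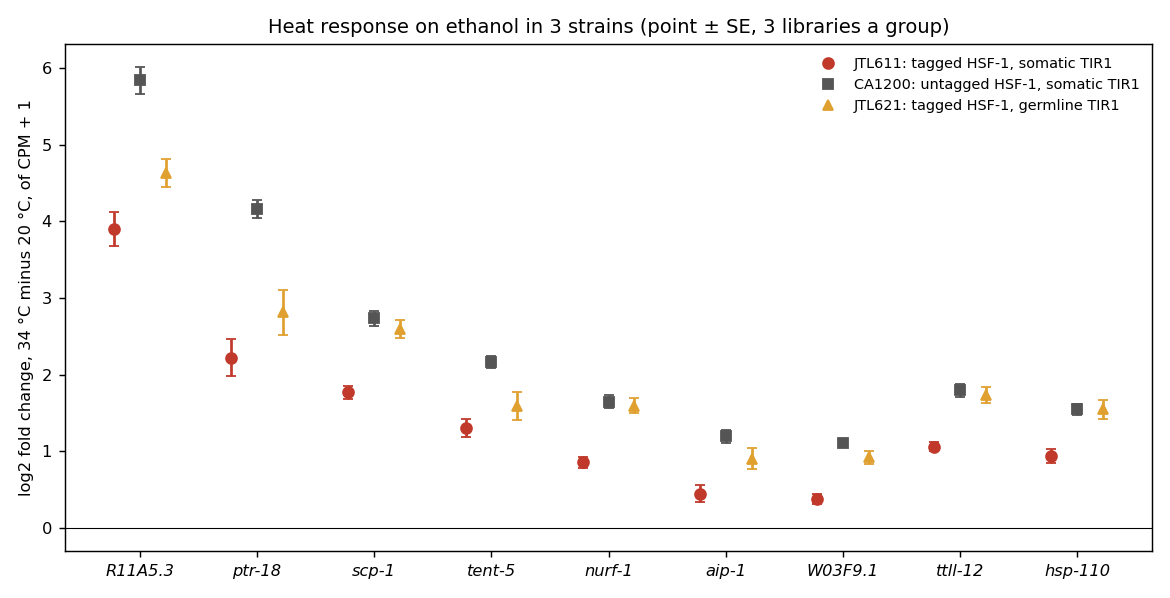
The log2 fold change of heat shock on ethanol (34 °C minus 20 °C, of CPM + 1, vertical axis) is shown for the 9 genes that differed between JTL611 and CA1200, with JTL611 in red, CA1200 in grey and JTL621 in orange; bars are the SE from each strain's fit of 12 libraries. The JTL611 point is the lowest for each gene, for example 1.77 for scp-1, against 2.73 in CA1200 and 2.59 in JTL621. Genes were chosen by their difference from CA1200, all with a smaller rise in JTL611, so JTL611 lies below CA1200 by that choice. Against JTL621, in a comparison that shares the JTL611 libraries, only scp-1, ttll-12, nurf-1 and W03F9.1 were called.

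On auxin plates, where TIR1 targets tagged HSF-1 in the soma, 24 of 12010 genes (0.2%) responded to heat differently than on ethanol in JTL611, all with a smaller rise on auxin. With limma-voom 15 of the 24 were called, without hsp-16.48, hsp-16.49, unc-23, ptr-18, R11A5.3, F57A8.9, T27E4.1, Y38H6C.8 and Y56A3A.33. The 2 comparisons share the ethanol libraries. The 24 comprised the 9 inducible chaperone genes, unc-23, hsp-110, scp-1, ttll-12, nurf-1, tent-5, ptr-18, R11A5.3, the ncRNAs F57A8.9 and C30E1.9, and 5 further genes, R107.5, T27E4.1, Y17D7C.3, Y38H6C.8 and Y56A3A.33. In heat-shocked auxin libraries scp-1 had 46.4, 48.7 and 45.7 CPM, and its heat response was -0.05 on auxin and 1.77 on ethanol. For F44E5.4 it was 5.73 on auxin and 10.53 on ethanol. Both aip-1 and W03F9.1 differed from CA1200 but were not called in the comparison of auxin with ethanol, with differences of -0.42 and -0.28.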

How the data were processed

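Per the labels, polyA RNA was sequenced as directional libraries. The submitters' processing notes name STAR, featureCounts and edgeR without versions, with the builds WBcel235 and ce11; whether counting used the strand is not given in the sources used here. The authors deposited normalised log2 values, 1 column per library, in a table for each strain. In JTL611 the lowest of them equals 0.119 CPM once the log is undone. Subtracting that offset gave linear CPM, of which 100% came to whole reads within 0.05.

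Because the deposited unit is log2 and not a count, log2(CPM + 1) was fitted with limma 3.58.1 (R 4.3.3), allowing the variance to follow the mean, as group means over the strain's 12 libraries (24 between strains). Tests were two-sided, and p-values were adjusted by Benjamini-Hochberg over every gene whose mean reached 1 CPM. The steps were tested on simulated data. Gene lists are described by counts and medians, with no set test. Genes were named by a rule: hsf-1; all inducible chaperones; the 3 best called members by adjusted p in each list; the 15 largest and 15 smallest called fold changes among genes over 5 CPM in the higher group without overlap; up to 5 per direction that differed between strains; and the 5 most abundant called per direction. Others, such as list members given by fold change only, are beyond that rule. The libraries, lists and rule were chosen with earlier results of these data known. Names and positions came from Ensembl release 115 of WBcel235, with RefSeq symbols for the hsp-16 and numr copies. Promoter and protein sequences were not analysed here.

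Replicate numbers were checked for pairing before blocked fits were compared. Deviations of same-numbered heat-shocked and unheated libraries from their group means correlated at 0.31, 0.57 and 0.24, a pattern in the values, since the labels state no pairing; blocked counts are therefore given beside those list counts that they move by over 1.5 times. Alternatives were another pseudocount, filter, scaling or model, the block, a fit to the compared libraries alone, and leaving out each library.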

Additional observations from a re-analysis of the deposited data

Results flagged for a closer look

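The heat response on ethanol differed between strains, by the test of the difference itself in a joint limma fit, for 9 genes against CA1200 and 4 against JTL621, each given as the JTL611 log2 fold change minus that of the other strain. Against CA1200 the differences were -0.96 for scp-1, -1.94 for R11A5.3, -0.73 for ttll-12, -0.79 for nurf-1, -0.86 for tent-5, -0.61 for hsp-110, -1.94 for ptr-18, -0.74 for W03F9.1 and -0.75 for aip-1. Against JTL621 they were -0.82 for scp-1, -0.68 for ttll-12, -0.74 for nurf-1 and -0.55 for W03F9.1. Every one of the 9 genes was called higher in JTL611 as well, so the difference is in the size of the rise. In a fit to the ethanol libraries alone, scp-1 and W03F9.1 still differed from CA1200, the other 7 did not pass, and no gene differed from JTL621. With limma-voom ptr-18, R11A5.3 and aip-1 were not called against CA1200. With 3 libraries in each group, no library could be flagged as far from the rest of its group.

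For tent-5, a terminal nucleotidyltransferase gene, JTL611 had 101, 114 and 115 CPM after heat shock, against 36.5, 53.2 and 43.7 CPM unheated, and CA1200 had 209.7, 176 and 177 CPM after heat shock, against 43.5, 38.1 and 41.6 CPM unheated. For W03F9.1, JTL611 had 128, 129.6 and 126 CPM after heat shock, against 105, 98.7 and 92.3 CPM unheated, and CA1200 had 214, 214 and 208 CPM after heat shock, against 93.8, 103.7 and 95.6 CPM unheated.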

How the results depend on the processing

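Of the 101 named genes called, 64 kept direction and call under every alternative run, and 37 lost the call in at least 1; the replicate block changed no call among them. Fitted to the 6 ethanol libraries alone, 283 genes were called (136 higher, 147 lower) in place of 779, and 36 named genes lost the call. In fits to the ethanol libraries alone 2 genes differed from CA1200 and 0 from JTL621. These fits have fewer libraries to estimate the spread, and the cause of the smaller numbers was not tested. With the replicate block 1261 were called, 864 of them lower. Leaving out 1 library gave 449 to 906 called, 199 to 413 higher and 249 to 580 lower. The genes differing from CA1200 numbered 6 to 11 without 1 library, and those differing from JTL621 numbered 0 to 2; the difference from JTL621 held 1 gene under quantile normalisation, with the replicate block and with ribosomal RNA left out of the totals, and the cause was not tested. The response that differed on auxin held 15 genes with limma-voom and 19 to 24 without 1 library. The log2 fold change of hsf-1, not called, ran from -0.29 to 0.13 with 1 library left out, and was positive without heat-shocked replicate 1. Genes under the 3-read floor of about 0.2 CPM at 20 °C have no measured unheated level.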

Other observations

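Calls were unevenly spread over the chromosomes. On the X chromosome 128 of 1580 genes tested fell (8.10%) and 37 rose (2.34%), whereas on chromosome I 50 of 2101 fell (2.38%) and 37 rose (1.76%). Over all genes tested 4.17% fell and 2.31% rose. Chromosome V had the largest share of rises among the nuclear chromosomes, with 78 of 2176 (3.58%), and 112 of its genes fell (5.15%). No test of this spread was made.

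Genes named here were chosen after their values were seen. The metabolic genes adh-1 (alcohol dehydrogenase), tre-5 (trehalase) and fil-2 (lipase) rose. For adh-1 the values were 133, 179.7 and 115 CPM after heat shock, against 21.9, 32.2 and 13.3 CPM unheated, a log2 fold change of 2.67, and both groups had ethanol plates. For tre-5 they were 10.8, 14.6 and 11.1 CPM after heat shock, against 0.211, 1.39 and 0.478 CPM unheated. F19B2.5 had 214, 189 and 161 CPM after heat shock, against 6.33, 18.9 and 26.9 CPM unheated, and its log2 fold change of 3.55 places it with the largest rises outside the chaperones. The glutamate transporter gene glt-1 fell by 1.14 on the log2 scale, at 31.8, 26.9 and 36.5 CPM after heat shock, against 79.3, 63.1 and 70.2 CPM unheated. The Notch ligand gene osm-11, which is among the named genes, rose by 0.56, at 263, 352 and 312 CPM after heat shock, against 218, 206 and 200 CPM unheated, while dos-1, for another Notch ligand, fell by 1.67 on the log2 scale, at 0.202, 0.119 and 0.508 CPM after heat shock, against 1.27, 4.17 and 4.57 CPM unheated.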
